A study of Mus musculus with 2 samples.

Results

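The genes described here carry the symbols of DEAD-box and DEAH-box proteins, a family of ATP-dependent enzymes that unwind or remodel RNA and RNA-protein complexes. They were taken from the deposited expression table as all genes whose symbol starts with Ddx or Dhx followed by a digit, with Ddx3x and Ddx3y left out. This gave 50 genes, 34 with a Ddx symbol and 16 with a Dhx symbol, of 17817 genes in the table. Levels came from 1 library of Setd2 knockout mouse embryonic stem cells and 1 library of wild-type cells. Both were of 129SV/C57BL/6 strain at passages 10 to 12, were grown on feeder cells and were moved to gelatin to remove most of these before collection. The labels name no clone and do not say how Setd2, which encodes the methyltransferase that trimethylates histone H3 at lysine 36, was disrupted. With 1 library per genotype no test was possible, and every difference below describes these 2 libraries only.

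DEAD-box proteins share a core with short conserved motifs that bind ATP and RNA. The family is named after motif II, which takes part in ATP hydrolysis. In cells these proteins accompany RNA through its life: they drive the steps of the spliceosome, release messenger RNA from the nuclear pore, assemble ribosomal subunits in the nucleolus, and control translation and decay in the cytoplasm. A few recognise viral RNA, and a few act mainly in germ cells. Embryonic stem cells divide fast and make many ribosomes.

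The codons of motif II show how the family divides. They were read from the longest coding transcript of each gene in the GENCODE annotation of mm9 (NCBIM37), and are printed here for members that the results below turn on, with the 4 codons of motif II in capitals and 3 codons on either side in lower case.
Ddx5, from base 742 of the coding sequence: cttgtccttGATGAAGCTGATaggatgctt
Ddx21, from base 1231: gttgtcctgGATGAAGTCGACcagatgttg
Ddx19a, from base 721: tttgttctgGACGAGGCTGATgtgatgata
Ddx19b, from base 769: tttgttctgGACGAGGCTGATgtgatgata
Ddx39, from base 583: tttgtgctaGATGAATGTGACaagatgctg
Ddx43, from base 1180: ttggttttaGATGAAGCAGACaagatgctg
Dhx38, from base 1957: gtcatcatgGATGAGGCCCACgagcgctcc
Dhx15, from base 778: ataattcttGATGAGGCCCATgaaagaaca
Dhx9, from base 1540: gttattgtgGATGAAATTCATgaaagagat
Ddx58, from base 1117: atgatatttGATGAGTGTCATaacactagc

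A motif of this form was found in 47 of the 50 genes; this is a match of letters and does not by itself show a helicase core. In Ddx26b, whose product is related to a subunit of the Integrator complex, the letters matched as well. Ddx26b is counted with the helicase genes throughout because of its symbol only. The last codon was GAC or GAT in 29 of 32 Ddx genes with a match and CAC or CAT in 15 of 15 Dhx genes. The 3 Ddx genes with CAC or CAT were Ddx11, Ddx58 and Ddx60, so the symbol does not always follow the motif. The search allowed only these codons in the last place. It also required letters of another conserved motif before the match, and further letters after it unless the match spelled DEAD or DEAH. A gene that failed any of these would not be found. No match was found in Ddx28, Ddx52 and Dhx32, and the reason was not examined. In the third place the search allowed codons of more amino acids, and there Ddx21, Ddx39, Dhx9 and Ddx58 differ from the others printed. Ddx19a and Ddx19b, neighbouring genes on chromosome 8, were identical over all 30 bases printed.

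The libraries held 52041677 read equivalents over genes in the knockout and 56129838 in the wild type. A read equivalent is 76 sequenced bases over a gene, and levels are given per 1000000 of them (CPM). Setd2 itself stood at 174 CPM in knockout cells against 452 CPM in wild-type cells, a ratio of 38.5% (37.6 to 39.4%, a 95% interval for counting error only). Stem cell markers were present in both, with Pou5f1 at 544 CPM in the knockout and 558 CPM in the wild type (a gene named, like Ddx3y, Fn1, Lum and Mavs below, after its values were seen). Of 12 stem cell markers compared 10 were lower in the knockout and 2 higher, with a median log2 fold of -0.22. Zfp42, on chromosome 8, was at 24.1% of its wild-type level, with 55% of its windows of 76 bases shared with another place in the genome. Utf1 was at 58.3% and Nanog, with 35% of its windows shared, at 140%. The Y-linked helicase gene Ddx3y, left out of the set, was at 176 CPM in the knockout and 0.445 CPM in the wild type, a difference between the cultures that cannot be told apart from genotype. Of 17 fibroblast markers compared, standing for feeder cells, 11 were lower in the knockout and 6 higher, with a median log2 fold of -0.19. Their summed level was 3138 CPM in the knockout and 2866 CPM in the wild type, most of it from Fn1 at 2957 and 2666 CPM. The marker Lum was listed at 0 in the knockout and stood below 0.1 CPM in the wild type. Of 12 primitive endoderm markers compared 11 were lower, with a median of -1.19. This median was -0.73 without chromosome 8 and -0.27 over the 7 that overlap no other gene. In bulk RNA, fewer cells of a type and less RNA per cell cannot be told apart, and the part of these markers in the results below was not tested. Chromosome 8 stood apart from the rest, with a median log2 fold of -0.35 over 719 genes compared, against 0.07 over the genes of all other chromosomes.

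The helicase genes together stood at nearly the same level in both libraries, and those that stood lowest lay on chromosome 8. The 50 genes summed to 9397 CPM in the knockout library, 0.940% of it, and to 9588 CPM in the wild-type library, 0.959% of it. The floor for comparison, an average of 1 CPM across the pair, was passed by 49 of the 50, all but Ddx60. None of these 49 was 2-fold apart: 0 stood 2-fold or more above the wild type, against a background of 1.76% of 13523 genes compared, and 0 stood 2-fold or more below it, against 2.11%. At 1.5-fold, 1 of 49 was higher, Ddx43, against 7.42% of all genes. At the same threshold 6 of 49 were lower, against 6.77% of all genes, and 5 of these 6 lie on chromosome 8. Most helicase genes are well expressed, and 48 of them averaged at least 10 CPM. Of these 48, 6 were 1.5-fold lower and 1 was 1.5-fold higher, against 5.83% and 4.52% of the 9245 genes above that level. Folds here are log2((knockout + 0.5)/(wild type + 0.5)) on CPM, and percentages of the wild-type level are plain ratios of CPM. The median log2 fold was -0.03 over the 49 helicase genes and 0.05 over all genes compared. Below 0 were 26 of the 49, or 53.1%, against 43.6% of all genes. Ddx genes had a median of -0.03 over 33 and Dhx genes a median of -0.04 over 16.

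**Figure D1:**
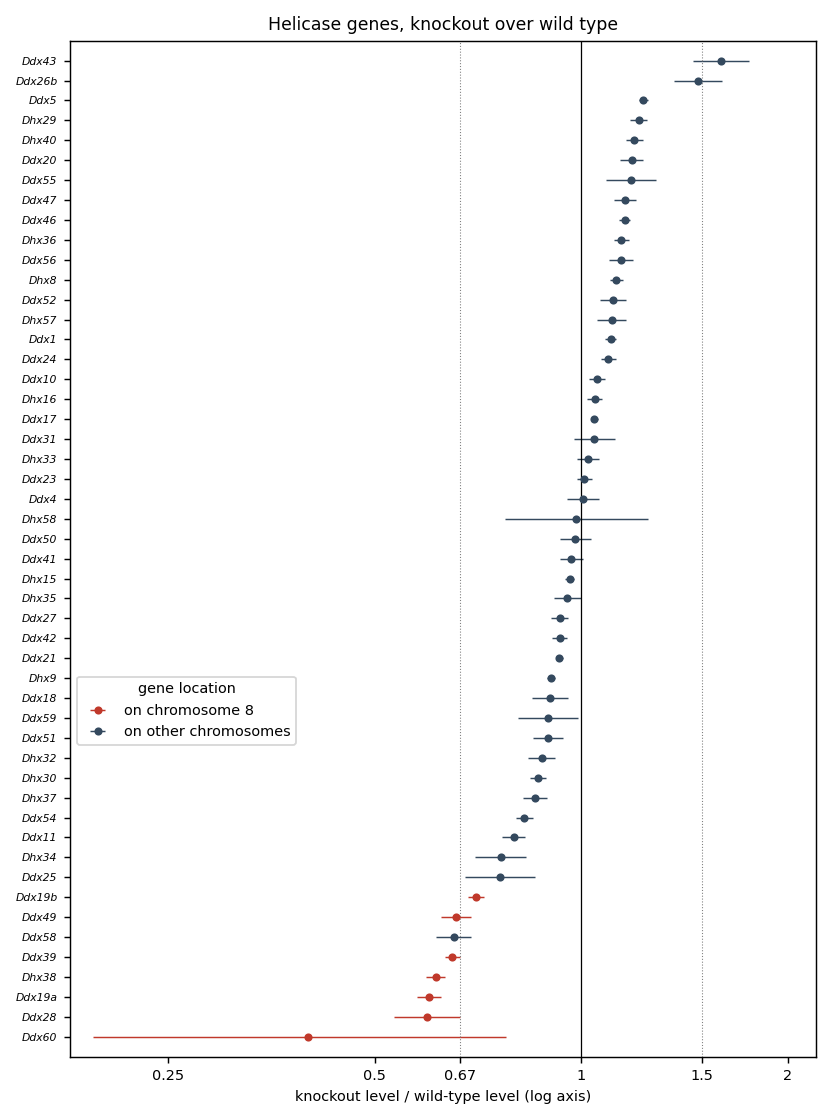
Ratio of the knockout level to the wild-type level for each of the 50 helicase genes, on a log axis, with bars for the 95% counting interval, which holds counting error only. Dotted lines mark 1.5-fold in either direction. The 7 genes on chromosome 8 and Ddx58 fill the low end, and Ddx43 and Ddx26b stand apart at the high end.

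Counting error was small beside most of these differences. The interval of the ratio lay below 1 for 24 genes and above 1 for 19, and it held 1 for 7, among them Ddx4, Ddx23 and Dhx58. These counts depend on scaling by the library total, and they were not made for all genes. With a trimmed mean of log ratios instead, log2 folds fell from 0.06 to 0.00 for Ddx17 and Dhx16. That of Ddx10 fell from 0.07 to 0.01. Of the 43 genes off chromosome 8, 34 lay within 1.2-fold and 38 within 1.3-fold. The same shares were not computed for all genes. The lower and upper quartiles of the log2 folds of these 43 were -0.15 and 0.18. Those of the 12804 genes compared off chromosome 8 were -0.16 and 0.29, at any level above the floor. How much 2 cultures of the same genotype would differ is not known from these data, so a ratio outside its counting interval is not shown to be a difference between genotypes.

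The helicase genes of chromosome 8 were all lower in the knockout, and by more than the median gene of that chromosome. There are 7, of which 6 passed the floor of 1 CPM, a share of 12.2% of the compared helicase genes, against 5.32% of all genes compared. Ddx19a (chromosome 8, 113498891 to 113521723, mm9) encodes a protein of the nuclear pore that helps release messenger RNA. It was at 70.7 CPM in the knockout and 118 CPM in the wild type, 60.0% of the wild-type level (interval 57.6 to 62.4%). Its neighbour Ddx19b (113527086 to 113551670), the closest relative, was at 169 CPM in the knockout and 240.2 CPM in the wild type, or 70.3% (68.5 to 72.3%).

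The 2 genes resemble each other closely. Of 20 windows of 76 bases from the exons of Ddx19a, 55% had another place in the genome, and 9 windows matched Ddx19b. Of the windows of Ddx19b 10% were shared. Reads could therefore have been placed on either gene, and 3 windows of Ddx19a matched elsewhere in the genome. How such reads were counted is not known, so both levels and their sum are uncertain. The sum was 239.7 CPM in the knockout and 358 CPM in the wild type, 66.9% (65.4 to 68.4%).

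Ddx28 (108533517 to 108535386), a gene of 1 exon whose product acts on the mitochondrial ribosome, was at 9.61 CPM in the knockout and 16.1 CPM in the wild type, 59.7% (53.4 to 66.6%). Dhx38 (112071924 to 112089501), which drives the second catalytic step of splicing, was at 113 CPM in the knockout and 184 CPM in the wild type, 61.3% (59.4 to 63.3%). Ddx39 (86239098 to 86247247), a factor of messenger RNA export, was at 193 CPM in the knockout and 298 CPM in the wild type, 64.8% (63.3 to 66.5%). Ddx49 (72816765 to 72826351), a nucleolar protein, was at 48.0 CPM in the knockout and 73.0 CPM in the wild type, 65.7% (62.5 to 69.1%). Exons of Ddx39 overlap those of Cd97 on the other strand over 17.4% of their length, and exons of Ddx49 those of Homer3 over 29.8%. The sources used here do not say whether counting used strand, so reads of these pairs cannot be told apart. Cd97 was at 43.1 CPM in the knockout and 83.5 CPM in the wild type, and Homer3 at 10.7 CPM in the knockout and 24.6 CPM in the wild type. Ddx60, an interferon-inducible helicase gene, was at 0.249 CPM in the knockout and 0.624 CPM in the wild type, 39.9% with a wide interval of 19.4 to 77.6%.

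The median log2 fold of the 6 compared genes of chromosome 8 was -0.66, with a range from -0.73 to -0.51. All 6 were below 0, as were 82.2% of the genes compared on that chromosome. Of all 719 genes compared on the chromosome 25.5% were at least 1.5-fold lower, and 5 of these 6 were. Among genes of chromosome 8 with a mean of at least 10 CPM, a level that all 6 exceed, the median was -0.37 over 541 genes and 26.8% were at least 1.5-fold lower. Between 13.6% (Ddx19a) and 32.5% (Ddx19b) of the genes of the chromosome had a lower fold than these 6. The genes around them were low too. Within 1 Mb on either side, other helicase genes left out, the median was -0.58 over 29 genes near Ddx19a, -0.48 over 50 genes near Ddx28 and -0.48 over 13 genes near Dhx38. It was -0.48 over 32 genes near Ddx39, -0.39 over 57 near Ddx49 and -0.50 over 30 near Ddx19b. The difference between each of the 6 log2 folds and that of its neighbours ran from -0.23 for Ddx28 to 0.00 for Ddx19b. Off chromosome 8 the 43 helicase genes had a median of 0.01, with 20 below 0 and 23 above 0. The share below 0 was 46.5%, against 41.5% of the 12804 genes compared off chromosome 8.

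**Figure D2:**
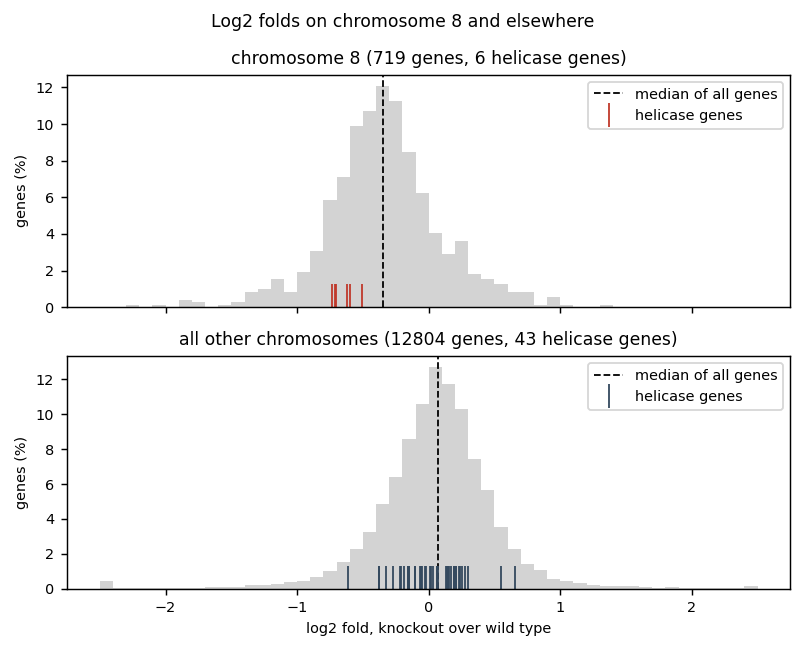
Distribution of log2 folds (knockout over wild type) of all genes compared on chromosome 8 (upper panel) and on all other chromosomes (lower panel), as a percentage of genes per bin of 0.1, with values beyond 2.5 in the end bins. Coloured ticks are the helicase genes and dashed lines the medians of all genes in the panel, -0.35 and 0.07. The 6 ticks of chromosome 8 lie left of its median.

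**Figure D3:**
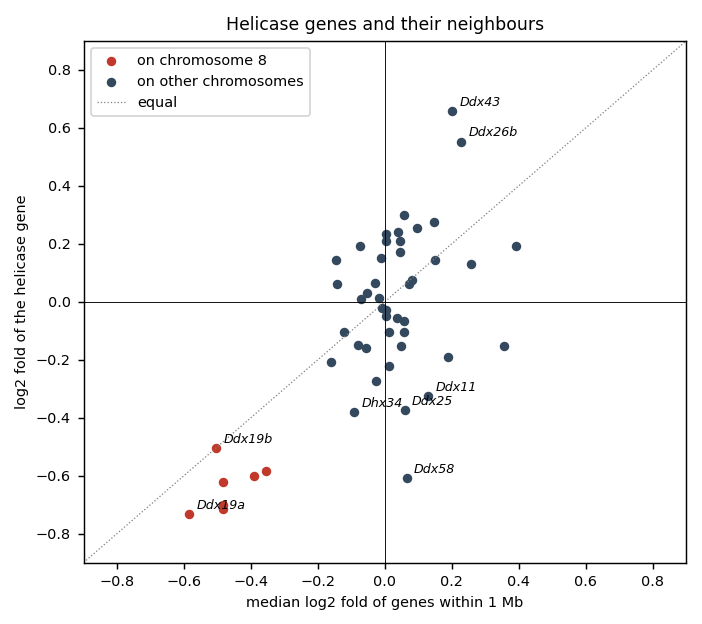
Log2 fold of each of the 50 helicase genes against the median log2 fold of the other genes within 1 Mb; the dotted line marks equal values. The genes of chromosome 8 lie at the lower left, on or below the line with their neighbours, and Ddx58 lies far below its own.

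The spliceosome helicases were among the closest in level between the libraries. Of 9 compared, 1 was at least 1.5-fold lower (Dhx38) and none higher, and the median was -0.05. Dhx15, which takes the spent spliceosome apart, had the highest level of the group per length of annotated exon, 192 CPM per kb in the knockout and 199 CPM per kb in the wild type. Its total level was 576 CPM in the knockout and 599 CPM in the wild type, 96.2% (94.7 to 97.7%). Ddx46, needed for the first stable binding of the U2 particle to the branch site, was at 474 CPM in the knockout and 410.1 CPM in the wild type, 116%. Dhx8, which releases the finished messenger RNA, was at 279.7 CPM in the knockout and 249 CPM in the wild type, 112%. The remaining 5 were Dhx16, Ddx23, Ddx41, Dhx35 and Ddx42, and their ratios ran from 93.0% for Ddx42 to 105% for Dhx16. Dhx16 acts just before the first catalytic step and Ddx23 in the release of the U1 particle.

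All 4 members listed for messenger RNA export were lower in the knockout, and 3 of them lie on chromosome 8. Their median was -0.57. The fourth, Ddx25 on chromosome 9, encodes a testis helicase related to Ddx19 and was at 9.44 CPM in the knockout and 12.4 CPM in the wild type, 76.2% (67.7 to 85.7%). In sum the 4 genes held 443 CPM in the knockout and 669 CPM in the wild type. No other group with more than 2 compared genes had all of these on one side of 0.

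The ribosome assembly helicases, the largest group, were balanced. Of 16 members 8 were below 0 and 8 above 0, the median was 0.00, and 1 was at least 1.5-fold lower (Ddx49). Ddx21, a nucleolar helicase that acts in ribosomal RNA transcription and processing, had the highest level per length of all 50 genes, 239 CPM per kb in the knockout and 258 CPM per kb in the wild type. Its total was 1135 CPM in the knockout and 1221 CPM in the wild type, 92.9% (91.9 to 93.9%). Its neighbour and close relative on chromosome 10, Ddx50, was at 51.4 CPM in the knockout and 52.5 CPM in the wild type, 98.0% (92.9 to 103%). Ddx21 thus stood 22.1-fold above Ddx50 in the knockout and 23.3-fold in the wild type, although 45% of the windows of Ddx50 are shared with other places, so that its own level is uncertain. Ddx24 was at 226.7 CPM in the knockout and 207 CPM in the wild type, 109%, and Ddx10 at 211 CPM in the knockout and 200.9 CPM in the wild type, 105%. Next to Ddx49, the lowest ratios in the group were those of Ddx54, 82.6% (80.3 to 85.0%), and Dhx37, 85.7% (82.3 to 89.3%). The highest were 118% for Ddx55 and 116% for Ddx47. For Ddx18, at 89.9%, 75% of windows were shared, so its level is uncertain.

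Helicases of transcription and small RNA processing were few but abundant. The 5 genes summed to 2848 CPM in the knockout and 2718 CPM in the wild type, and 4 of 5 were above 0, with a median of 0.14. Ddx5 and Ddx17 encode closely related coactivators that also belong to the complex that cuts primary microRNAs. Ddx5 was at 609 CPM in the knockout and 495 CPM in the wild type, 123% (121 to 125%), with 25% of its windows shared. Ddx17 was at 964 CPM in the knockout and 923 CPM in the wild type, 104% (103 to 106%). Ddx5 thus stood at 0.632 of Ddx17 in the knockout and 0.536 in the wild type, a comparison of total reads, not corrected for length. Dhx9, which unwinds RNA and RNA-DNA hybrids, was at 747 CPM in the knockout and 828 CPM in the wild type, 90.2% (89.0 to 91.4%). Ddx1, part of the tRNA ligase complex, was at 416 CPM in the knockout and 377 CPM in the wild type, 110%. Ddx20, or Gemin3, a partner of the SMN protein in building splicing particles, was at 112 CPM in the knockout and 94.8 CPM in the wild type, 118% (114 to 123%).

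Among the 3 helicases of translation and decay, 2 were higher and 1 lower. Dhx36, which resolves G-quadruplexes, was at 264 CPM in the knockout and 230.3 CPM in the wild type, 114% (112 to 117%). Dhx29, which helps the small ribosomal subunit through structured leaders, was at 178 CPM in the knockout and 147 CPM in the wild type, 121% (118 to 125%). Dhx34, a factor of nonsense-mediated decay, was at 17.6 CPM in the knockout and 23.1 CPM in the wild type, 76.3% (70.0 to 83.1%). Of the mitochondrial pair, Dhx30 on chromosome 9 was at 182 CPM in the knockout and 211 CPM in the wild type, 86.6% (84.3 to 88.9%). Ddx28, the other, is the gene of chromosome 8 described above.

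**Figure D4:**
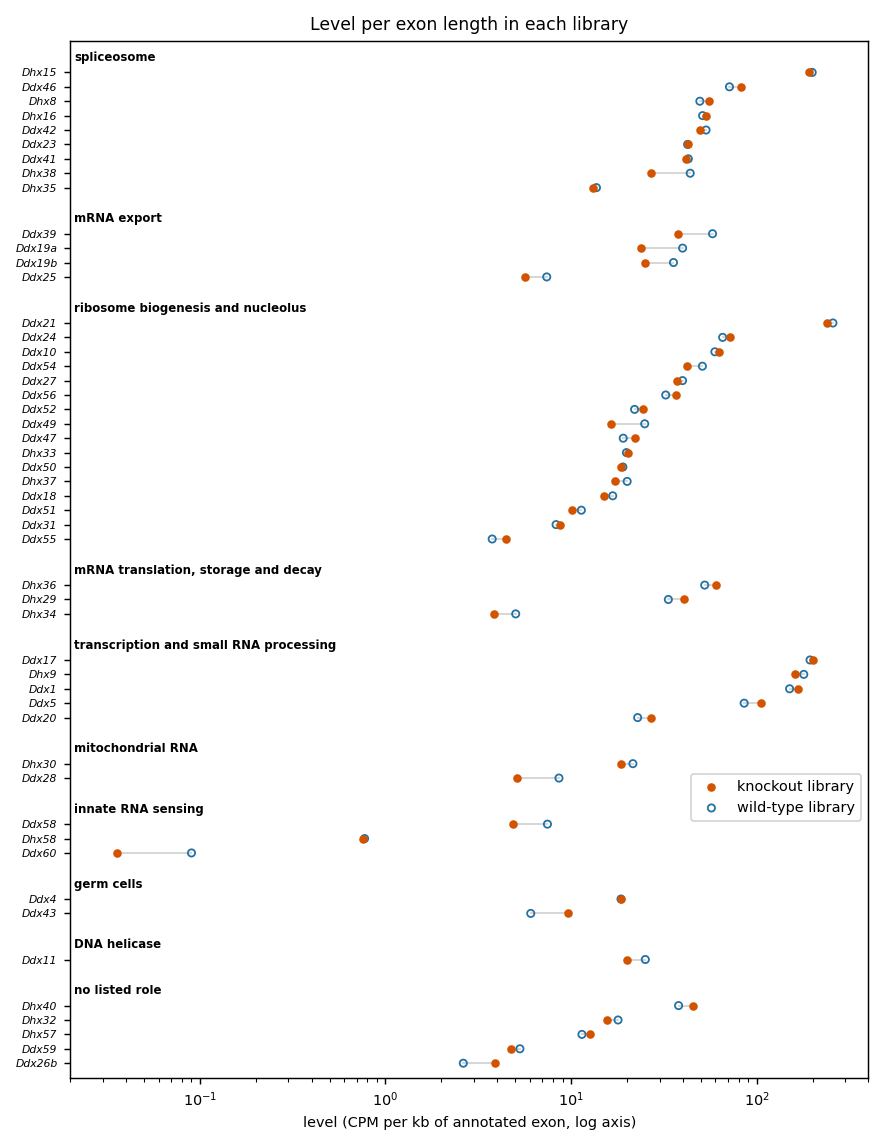
Level of each helicase gene in the knockout library (filled) and the wild-type library (open), in CPM per kb of annotated exon on a log axis, grouped by role, with Ddx25 shown under export although it is also listed for germ cells. Levels span from under 0.1 for Ddx60 to over 200 for Ddx21, and most pairs of points touch or overlap.

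Of the helicases off chromosome 8, Ddx58 was the lowest in the knockout. Ddx58 (chromosome 4, 40152823 to 40186734) encodes RIG-I, the cytoplasmic sensor of viral RNA with a free triphosphate. It was at 34.3 CPM in the knockout and 52.6 CPM in the wild type, 65.2% (61.4 to 69.2%), while the 15 genes within 1 Mb had a median log2 fold of 0.06. Dhx58, which encodes the related protein LGP2, was low in both, at 2.61 CPM in the knockout and 2.66 CPM in the wild type, 98.1% (77.4 to 125%). Of 12 compared genes of the RNA sensing pathway, 8 were below 0 and 4 above 0, with a median of -0.09. At 2-fold, 2 were lower and none higher, against 2.11% and 1.76% of all genes compared, and both stood near the floor. The interferon-inducible gene Ifit2 was at 1.64 CPM in the knockout and 5.78 CPM in the wild type, 28.4% (21.9 to 35.9%). Tmem173, the DNA-sensing adaptor STING, was at 0.490 CPM in the knockout and 2.39 CPM in the wild type, 20.6% (13.2 to 32.0%). Mavs, the adaptor directly after RIG-I, was at 28.6 CPM in each library. The fibroblast markers given above moved in both directions beside these genes, and their part in the level of Ddx58 was not tested.

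The promoter of Ddx58 is printed because this gene stood apart from its chromosome and from its relative Dhx58. The window runs from 250 bases before to 50 after the start in RefSeq (GRCm38.p6, chr4:40239776-40240075, minus strand), and capitals mark the single match to the core of the interferon-stimulated response element, GAAA followed after any 2 bases by a second GAAA, here on the opposite strand.
Ddx58 promoter: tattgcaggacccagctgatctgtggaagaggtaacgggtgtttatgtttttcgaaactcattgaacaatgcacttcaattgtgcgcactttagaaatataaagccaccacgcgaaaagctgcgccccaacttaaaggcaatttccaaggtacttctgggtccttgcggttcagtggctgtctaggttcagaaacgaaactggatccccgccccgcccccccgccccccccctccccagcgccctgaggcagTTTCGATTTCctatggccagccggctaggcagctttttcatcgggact
On either strand, these letters occur in 3 of 44 helicase promoter windows, 6.82%, those of Ddx49, Ddx58 and Ddx60. The share was 3.49% of all 27025 windows of this length and 2.56% of the windows of genes compared. The 3 genes were all lower in the knockout, but 2 of them lie on chromosome 8. In the Ddx58 window the match lies within the 50 bases after the start. A match of letters does not show that a factor binds there.

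Of the 3 compared germ cell helicases Ddx43 was higher, Ddx4 nearly equal and Ddx25, given above, lower at 76.2%. Ddx43 (chromosome 9, 78243584 to 78271394), a helicase best known from testis and tumours, was at 21.4 CPM in the knockout and 13.4 CPM in the wild type, 160% (145 to 175%). It overlaps 4930542C12Rik on the other strand over 15.9% of its exon length, so part of its reads may be of that gene. The 17 genes within 1 Mb had a median log2 fold of 0.20. Ddx4, the Vasa gene that marks germ cells, was at 53.2 CPM in the knockout and 52.9 CPM in the wild type, 101% (95.4 to 106%). Of 14 compared germ cell and piRNA genes 11 were above 0 and 3 below 0, with a median of 0.27. At 1.5-fold, 4 were higher and 1 lower, against 7.42% and 6.77% of all genes compared. Mael, a piRNA factor, was at 31.0 CPM in the knockout and 13.5 CPM in the wild type, 230% (211 to 251%). Piwil1, at a low level, was at 4.66 CPM in the knockout and 2.39 CPM in the wild type, 195% (158 to 243%). Piwil2, another protein that binds piRNAs, was the one lower, at 37.0 CPM in the knockout and 70.9 CPM in the wild type.

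Of the members with other or less known functions, Ddx26b and Ddx11 lay outside 1.2-fold and the rest within it. Ddx26b on chromosome X was at 27.8 CPM in the knockout and 18.8 CPM in the wild type, 148% (136 to 160%), just under 1.5-fold, and its 8 neighbours had a median of 0.23. The part of the difference in Ddx3y in this value was not tested. Dhx40 was at 189.6 CPM in the knockout and 159 CPM in the wild type, 119%. Dhx57 stood at 111%, Ddx59 at 89.5% and Dhx32 at 87.5%. Ddx11, a DNA helicase of sister chromatid cohesion, was at 83.2 CPM in the knockout and 104 CPM in the wild type, 79.7% (76.6 to 82.9%).

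Apart from the RNA sensing and germ cell lists above, lists of related genes without these symbols had medians near 0. Of 18 compared RNA helicase genes with other names, 9 were above 0 and 9 below 0, with a median of 0.00, and 1 was at least 1.5-fold higher and 1 lower. Mov10, an antiviral helicase that also restrains retroelements, was at 66.3 CPM in the knockout and 109 CPM in the wild type, 60.9% (58.4 to 63.6%), and is on chromosome 3. The meiotic helicase gene Hfm1 was at 2.49 CPM in the knockout and 1.43 CPM in the wild type. Eif4a1, the helicase of translation initiation, was at 103 CPM in the knockout and 147 CPM in the wild type, with 25% of its windows shared. The G-patch proteins, which switch on DEAH-box helicases, had a median of 0.06 over 17 genes, with Cherp on chromosome 8 the only one 1.5-fold apart, at 199 CPM in the knockout and 326 CPM in the wild type. Rbm10, with 70% of its windows shared, was at 70.1% of its wild-type level and Gpatch4 at 74.3%. Binding partners of DEAD-box proteins had a median of 0.02 over 19 genes. Among them Gemin4, which binds the product of Ddx20, was at 85.5 CPM in the knockout and 160.4 CPM in the wild type, 53.3% (51.4 to 55.2%). Of the windows of Gemin4 35% were shared, so its level is uncertain. Lsm14b was at 93.7 CPM in the knockout and 65.2 CPM in the wild type, and Cnot1, the scaffold of the deadenylase complex, which lies on chromosome 8, at 70.9%. Ribosome assembly factors without helicase activity had a median of -0.04 over 30 genes. Nob1, also on chromosome 8, was the one at least 1.5-fold lower, at 65.4%, with Rrs1 and Fbl each at 77.7%. Of the windows of Rrs1 30% were shared and of those of Fbl 85%, so their levels, like that of Rbm10, are uncertain.

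**Figure D5:**
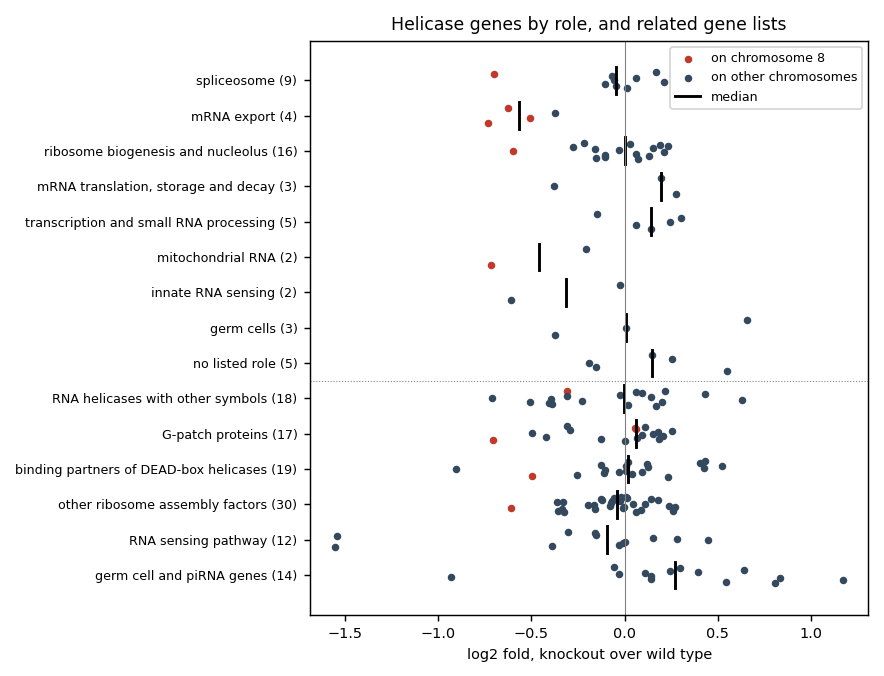
Log2 fold (knockout over wild type) of the compared helicase genes by role, above the dotted line, and of related gene lists below it, with the number of genes in brackets and vertical bars for medians. Red points lie on chromosome 8; they make up 3 of the 4 export genes and the lowest point of the spliceosome and ribosome groups.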

How the data were processed

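RNA from 1 Setd2 knockout and 1 wild-type culture was sequenced, and each column was taken to its genotype by its name. The submitters' processing notes name CASAVA 1.6.0, TopHat 1.0.13 and mm9, with no role or order. Per the file headers the deposited values are RPKM, but they behave as log2(x + 1) of read equivalents with no scaling by depth or length: 85.7% (knockout) and 85.9% (wild type) of values of x above 0 and under 200 were whole bases to a tolerance of 0.05 base. How the authors arrived at the deposited log2 scale is not stated in the labels.

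Values were turned back, scaled to 1000000 per library and compared with a pseudocount of 0.5 CPM and a floor of 1 CPM on the mean of both libraries. A symbol on several rows took the highest. Ratios carry exact conditional binomial 95% intervals (scipy 1.17.1) on rounded read equivalents; they hold counting error alone, since no molecular identifiers tell separate molecules from copies. The procedure was tested on simulated data with counting error only and with known changes larger than that of any helicase gene here. That test does not cover smaller folds, differences between cultures or shared windows. All 50 genes matched a GENCODE model of the mm9 assembly by symbol and position, 47 of them starting within 1000 bases. Exon windows of 76 bases, 20 per gene, were aligned with minimap2 2.31, with at most 2 mismatches counting as shared; 11 of the 50 genes had a shared window. Exons of 9 overlap a gene on the other strand.

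The genes and lists were chosen with earlier results of these data known. Both levels are given for genes 1.5-fold apart, those of chromosome 8, the 3 highest per length in each role and well-known genes such as Ddx4 and Dhx9; each related list names its 3 largest folds, except 1 gene that is not reported here. Other list members were only counted. Alternatives were 2 pseudocounts, 2 floors, 3 rescalings, 2 fold thresholds, summed rows, folds relative to the gene's own chromosome, and leaving out chromosome 8, genes mostly in shared windows or genes overlapping others.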

Additional observations from a re-analysis of the deposited data

How the results depend on the processing

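No paired analysis was possible because each genotype has 1 library, which also leaves none to omit. Folds against the gene's own chromosome and the setting without overlapping genes were chosen after the data were seen. The counts of 0 genes at least 2-fold higher and 0 lower became 1 and 6 at 1.5-fold, as the threshold implies, and were 0 and 0 in every other setting run. The count of 6 genes at least 1.5-fold lower was 1 without chromosome 8 and 1 relative to the median of each gene's own chromosome, Ddx58 in both; the first of these settings leaves out the other 5. It was 4 without genes overlapping another, which leaves out Ddx39 and Ddx49, 5 without genes mostly in shared windows, which leaves out Ddx19a, and 7 with no floor, which adds Ddx60. The 1 gene at least 1.5-fold higher became 0 without genes overlapping another, which leaves out Ddx43. The median of the chromosome 8 helicases was -0.32 relative to that chromosome, and that of the export group -0.33. The spliceosome median was -0.11 with the trimmed mean of log ratios and -0.12 relative to own chromosomes. The Setd2 level, as a log2 fold, was -1.43 with the median log2 ratio set to 0, -1.44 with the trimmed mean and -1.43 relative to its chromosome, against -1.37 as reported. Of 275 recomputed medians 271 stayed inside a 95% order-statistic interval of their list's folds, or inside the whole range for lists under 6 genes. Of 570 recomputed single folds 481 stayed inside the counting interval of their gene and 89 moved outside it. Among the 570, 12 changed sign, all of genes within 0.0613 of 0. No rescaling moved a fold by more than 0.0613. Depth limits Ddx60 and Dhx58, whose intervals are the widest.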

Other observations

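Promoter windows were compared as a further description, with one window per gene for the 44 helicase genes found in the RefSeq table (GRCm38.p6). They held a median of 24 CG pairs, against 21 for the windows of the genes compared in these cells and 7 for all windows. The Sp1 letters GGGCGG on either strand were in 65.9% of helicase windows, 67.0% of windows of compared genes and 35.9% of all windows. The Ets letters CCGGAAGT were in 9 helicase windows, 20.5%, against 8.40% for compared genes. The 9 were those of Ddx17, Ddx27, Ddx47, Ddx50, Dhx8, Dhx9, Dhx30, Dhx34 and Dhx37, and none of these genes lies on chromosome 8. On that chromosome only Ddx19a, Ddx19b, Ddx28, Ddx49 and Ddx60 had a window, too few to tell whether the letters are rarer there. The letters TATAAA were in 2 helicase windows, 4.55%, those of the sensor genes Ddx58 and Ddx60, against 6.57% of windows of compared genes. Dhx58, the other sensor gene, was among those without a window. Members for this description were not chosen by these letters, the motifs were picked from common promoter elements, and no test was made.

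Outside chromosome 8, the chromosomes with at least 3 of these genes compared were as follows. The 8 compared on chromosome 11 had a median log2 fold of 0.16, against 0.02 for the 1094 genes compared there, and the 5 on chromosome 5 a median of -0.16, against 0.06 for 883 genes. The 3 on chromosome 1, Ddx18, Ddx59 and Dhx9, each had a log2 fold of -0.15, against a chromosome median of 0.09. On chromosome 13 the 4 compared had a median of 0.11, against 0.12, and on chromosome 9 the 4 had -0.07, against 0.05. On chromosome 17 the 3 compared had a median of 0.06, against 0.05, and on chromosome 2 the 3 had -0.07, against 0.06.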
